A study of Saccharomyces cerevisiae with 2 samples.

Results

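The chromatin of the chromosome ends was described from the outer 20 kb of each of the 16 nuclear chromosomes of budding yeast, Saccharomyces cerevisiae. The first and the last 20 kb of every chromosome were taken, the end being the last base covered by a read in either library, and each was cut into 40 windows of 500 bp. This gave 1280 windows at 32 ends, which is 640000 bp, of 24084 windows and 12045928 bp in all. They were set against the interior of the same chromosome outside 40 kb of an end, 21524 windows and 10765928 bp in total. Left and right ends are the low and the high coordinates of a chromosome. Left windows began at the first base of the chromosome, while right windows were placed by the last covered base, which comes from the reads. A read-free tip could therefore be counted on left ends alone. No density value entered this rule, but the windows were chosen with earlier results of these data known.

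The series holds 2 MNase-seq libraries of in vivo nucleosomes, both from cells grown in YPD and fixed with 1% formaldehyde for 30 minutes. Digestion was with 3.5 units of micrococcal nuclease (MNase) for 20 minutes at 37 °C in both. Micrococcal nuclease cuts the linker DNA between nucleosomes, DNA of mononucleosomal size was cut from a gel, and 1 end of each fragment was sequenced. The labels give no strain and the data summary of the study lists the laboratory strain BY. The labels do not say whether the libraries, named here replicate 1 and replicate 2, came from separate cultures, so an SD over them is only the spread between these libraries. With 2 libraries a permutation test could not go below p = 0.5, and windows or ends of 1 library are not replicates. All values are therefore descriptions, and a difference is called larger than the spread only against the SD over the libraries.

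Yeast chromosomes end in short irregular telomeric repeats, next to which lie the X element and, at some ends, one or more copies of the longer Y′ element. The Sir proteins bind near telomeres and silence genes there, on nucleosomes that lack the acetyl marks of active chromatin. The subtelomeric DNA farther in holds families of similar genes, such as PAU (cell wall mannoproteins), COS, HXT (hexose transporters) and YRF1 (the helicase encoded by Y′ elements), and much of it occurs at more than 1 end. A read from such copies cannot always be given a single place. How the authors treated reads with several places is not given in the sources used here, and no genome sequence of the build of the files was used, so the part of repeated sequence in the values below was not tested.

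Replicate 1 held 21957427 reads on the nuclear chromosomes and replicate 2 held 19261599. A read was counted at an estimated midpoint of its fragment, set by the distance between the strands in its library. For this its 5′ end was moved inward by 46 bp in replicate 1 and by 42 bp in replicate 2. The interior held a median of 850 midpoints per window in replicate 1 and 742 in replicate 2. A count of 0 in a window allows up to 3 midpoints, far below these medians. The outer 20 kb made up 5.31% of the bases. They held 830447 midpoints of replicate 1, or 3.78% of its nuclear reads (95% exact binomial interval 3.77% to 3.79%), and 869438 of replicate 2, or 4.51% (4.50% to 4.52%). These intervals cover counting error only, since amplified reads are not independent molecules. The libraries thus differed in this share by more than counting error, and both lay below the share of bases.

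Midpoint density was lower in the outer 20 kb than in the interior of the same chromosome. The density ratio is the number of midpoints in a window over the interior median of its chromosome. Its median over the outer windows was 0.596 in replicate 1 and 0.592 in replicate 2 (mean 0.594 ± 0.00250, SD, n = 2), and the distance from 1 was larger than the spread between the libraries. On 16 of 16 chromosomes the outer median was below 1 in both libraries. In steps of 5 kb the median ratio over all windows grew with the distance from the end. It was 0.371 in the outer 5 kb as the mean of both libraries, 0.466 from 5 to 10 kb, 0.579 from 10 to 15 kb and 0.816 from 15 to 20 kb. From 20 to 40 kb it was 0.960, close to the interior. The outermost 1 kb alone had 0.771, above the value from 5 to 10 kb. As a mean over windows the ratio did not rise in this way. In replicates 1 and 2 it was 0.793 and 1.27 in the outer 5 kb and 0.635 and 0.743 from 5 to 10 kb. The interior had 1.10 and 1.11 by this measure.

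**Figure D1:**
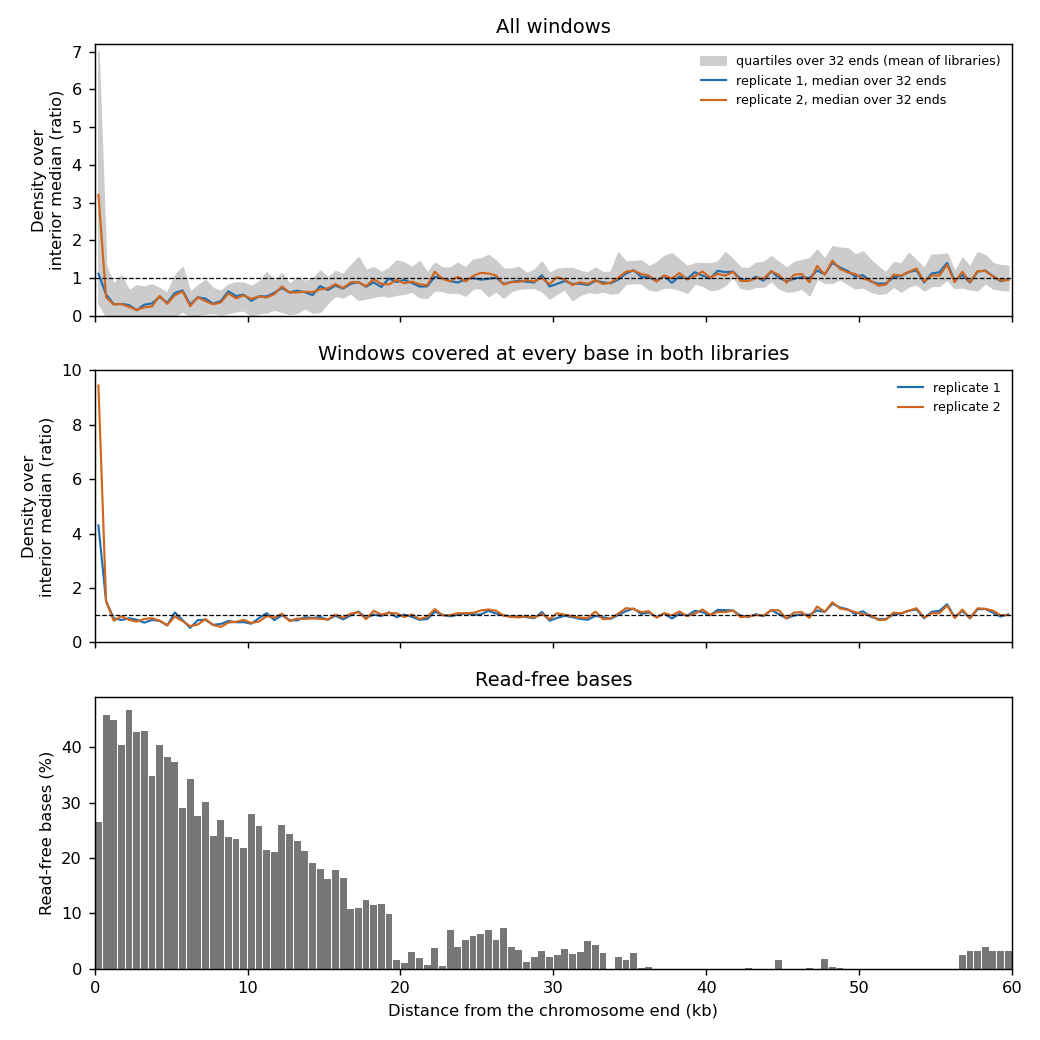
Density ratio (midpoints per 500 bp window over the interior median of the chromosome) against the distance from the chromosome end in kb, for each library. The median rose from 0.371 in the outer 5 kb to 0.960 between 20 and 40 kb. The outermost 500 bp window, with medians of 1.12 and 3.21 in replicates 1 and 2, did not follow this rise.

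The lower density was made up of windows with almost no reads and of windows with moderately fewer. Under 0.5 times the interior median in both libraries lay 536 of the 1280 outer windows, or 41.9%, against 13.2% of all windows of the 16 chromosomes. With windows of 1 kb 248 of 640 (38.8%) were low, against 8.74%, and 439 windows of 500 bp (34.3%) held more than 3 times fewer midpoints than the median, against 7.72%. Of the 536 windows, 428 (79.9%) held at least 1 base outside every read interval of both libraries. Covered at every base in both libraries were 108 of the 536, against 795 of all 1280 outer windows. Low counts and read-free bases come from the same reads. The share of low windows fell from 53.8% in the outer 5 kb to 49.4%, 40.9% and 23.4% in the following steps of 5 kb, and it was 13.9% between 20 and 40 kb.

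Among windows covered at every base in both libraries the difference was smaller but kept its direction. In the outer 20 kb 795 windows were so covered, and their median density ratio was 0.850 in replicate 1 and 0.861 in replicate 2 (mean 0.856 ± 0.00797, SD, n = 2). The 20377 covered windows of the interior had a median of 1.03 in both libraries. In steps of 5 kb from the end the outer covered windows had medians of 0.886, 0.730, 0.847 and 0.978 as means of both libraries. These medians did not rise steadily. The quartiles of the outer covered windows were 0.605 and 1.25, and their range overlapped widely with the 0.733 to 1.41 of the interior. Of the covered outer windows 108 (13.6%) were low in both libraries, against 1577 (7.74%) in the interior. On 11 of 16 chromosomes the covered outer windows had a lower median than the covered interior windows in both libraries. Chromosome 10, whose outer 20 kb held 7 covered windows, stood on the other side, at 1.51 in both libraries. So did chromosome 9 with 37 covered outer windows, at 1.041 and 1.039 against 1.017 in both libraries in the interior. On chromosomes 2, 4 and 13 the libraries differed in direction.

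The ends differed greatly from each other. The median ratio of an end was below 1 in both libraries at 30 of 32 ends. It was below 0.1 in both at 9 ends, 5 left and 4 right, and at least 0.8 at 10 ends. The order of the ends was nearly the same in both libraries, with Pearson's r = 0.991 and Spearman's rho = 0.983 over the 32 ends, which share their libraries. Over the 532 blocks of 20 kb that the interior allowed, the middle 90% of the median ratios began at 0.723, and 19 of the 32 ends lay below that value.

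The ends with the highest density were the right ends of chromosomes 4, 9 and 6. Chromosome 4 right had a median ratio of 0.944 in replicate 1 and 1.05 in replicate 2. Chromosome 9 right had 1.01 and 0.967, and chromosome 6 right had 0.923 and 0.977. The medians of these ends thus lay close to that of the interior, on both sides of it. Read-free bases made up 0.05% of chromosome 4 right and 0.445% of chromosome 9 right, and chromosome 6 right was the only end of the 32 with no read-free base.

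The lowest ends had a median of 0 in both libraries. At chromosome 9 left 35 of the 40 windows held no midpoint in either library, at chromosome 10 left 34, at chromosome 16 left 21, and at chromosome 8 right 20. The right end of chromosome 15 and the left end of chromosome 12 lay next to them, with medians of 0.001003 and 0.000944 as means of both libraries and 20 empty windows each. The opposite ends of these chromosomes ranged widely. As means of both libraries, their median ratios were 0.0258 at 10 right, 0.522 at 12 right, 0.590 at 8 left, 0.733 at 16 right, 0.881 at 15 left and 0.988 at 9 right. Left ends together had a median ratio of 0.482 and right ends of 0.670. Right ends began at the last covered base, while left ends began at base 1 even where the first covered base lay farther in, at 6497 on chromosome 14, 6707 on chromosome 16, 752 on chromosome 6 and 236 on chromosome 5. Read-free stretches at the very tip were therefore counted on left ends alone, and their part in the difference between the sides was not tested.

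**Figure D2:**
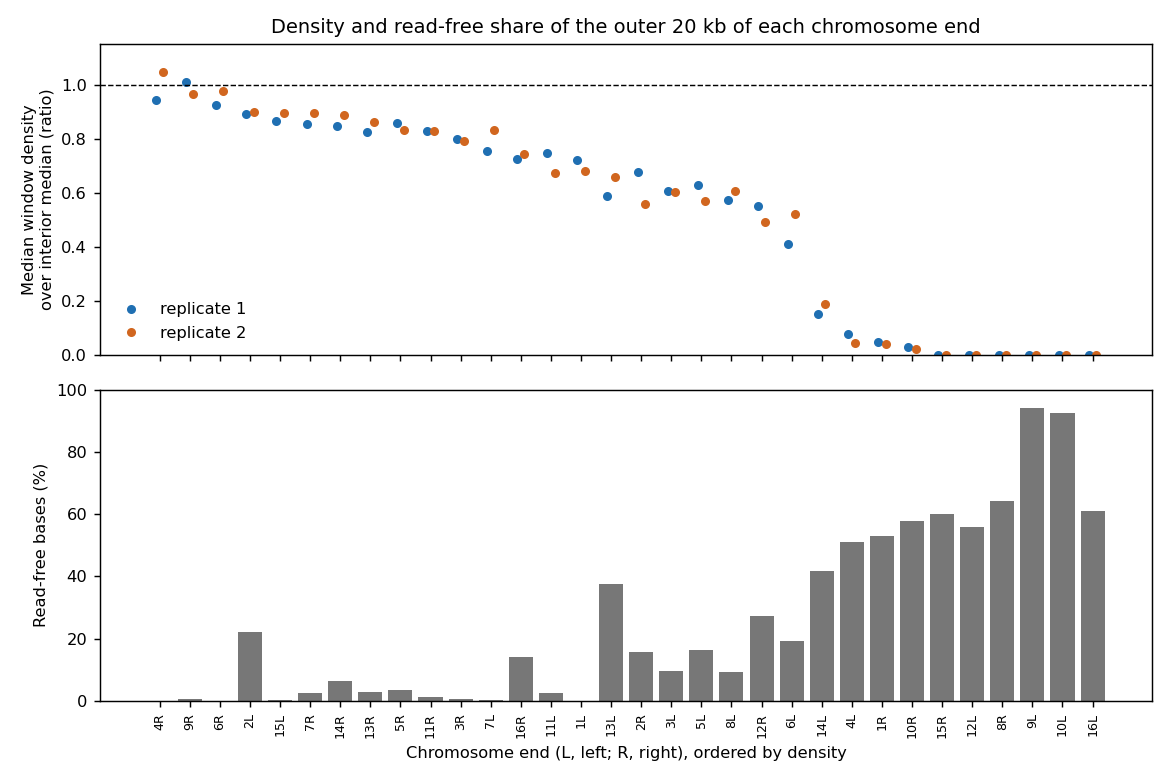
Median density ratio of the 40 windows of each of the 32 ends in both libraries and the read-free share of each end in percent. The right ends of chromosomes 4, 9 and 6 lie near the interior value of 1, while 9 ends lie below 0.1 in both libraries.

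Bases without any read covered a large part of the outer 20 kb. A base is read-free here where it lies in no deposited interval of 150 bp. In replicate 1 26.0% of the outer bases were read-free and in replicate 2 26.3% (mean 26.1% ± 0.211, SD, n = 2), against 2.80% and 2.85% in the interior. Free in both libraries were 164597 bases, 25.7% of the outer 20 kb. The outer 20 kb thus held 34.5% of the 477242 read-free bases of the nuclear chromosomes in 5.31% of their length.

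The read-free bases lay in the same places in both libraries. Of the outer bases free in replicate 1, 99.0% were free in replicate 2, and 97.9% the other way round. They formed 186 intervals with a median length of 232 bp, or 29.1 per 100 kb, where the interior had 2.81 per 100 kb with a median of 173.5 bp. The 42 intervals over 1 kb held 81.3% of the read-free bases of the outer 20 kb. In the interior 80 intervals over 1 kb held 85.01%, so the share in long intervals was similar. Of the outer windows 257 (20.1%) had no midpoint in either library, against 3.18% of all windows of the chromosomes. The share of read-free bases fell inward from 40.3% in the outer 5 kb to 27.8%, 22.8% and 11.9%, and it was 2.65% between 20 and 40 kb.

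The 5 longest read-free intervals lay at 4 ends. In sacCer2, the build named in the submitters' processing notes, the longest ran over chr9:174-15888 at the left end, 15715 bp. On the left end of chromosome 10 the intervals chr10:158-8254 (8097 bp) and chr10:8551-15874 (7324 bp) followed each other with fewer than 300 covered bases between them. The interval chr16:1-6706 began at the first base of the chromosome and spanned 6706 bp. On the right end of chromosome 15 the interval chr15:1084434-1091130 spanned 6697 bp. The longest interval of the interior had 11317 bp, so that length alone did not set the outer intervals apart, except for that of chromosome 9.

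The read-free share was spread unevenly over the ends. At 12 ends it was under 5%, and at 9 ends over 50%. The 9 ends over 50% were those with a median density ratio below 0.1, chromosome 1 right, 4 left, 8 right, 9 left, 10 left, 10 right, 12 left, 15 right and 16 left. Over the 32 ends, density and read-free share ran opposite, with r = -0.920 and rho = -0.867, and both come from the same reads. Of the interior blocks of 20 kb 95% had a read-free share of at most 22.5%, a value that 12 ends exceeded. The most read-free interior block reached 93.4%, which was passed by 1 end, chromosome 9 left with 94.04%.

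**Figure D3:**
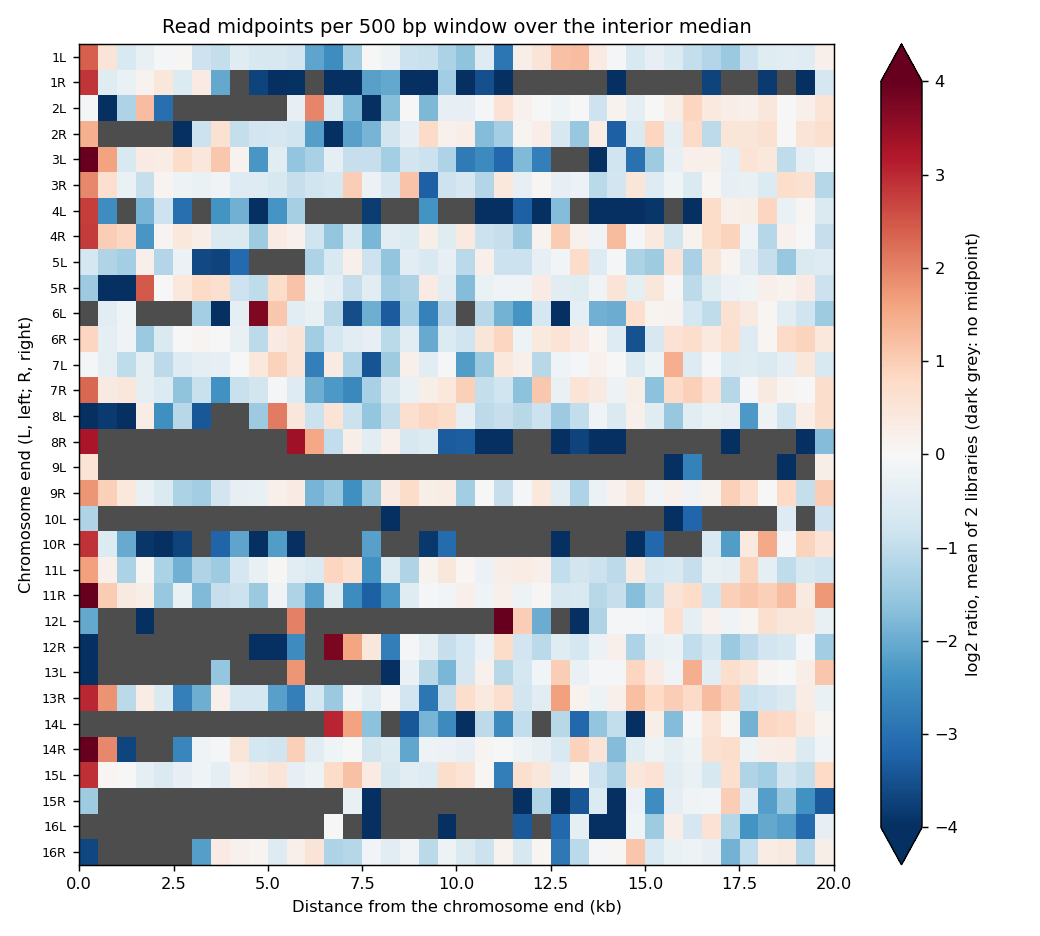
Density ratio of each 500 bp window, coloured on a log2 scale, for the 32 ends, with the distance from the end in kb on the horizontal axis and the mean of the libraries as the value. Windows below 0.5 fill most of the 9 lowest ends, and the 5 fullest windows lie at a tip or inward of an empty stretch.

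Gene order in the R64 annotation was used for the names of the outermost genes, without coordinates, since R64 is a later build than that of the files. Several of the emptiest ends carried the same gene families. The outermost 8 protein-coding genes of chromosomes 9 left and 10 left shared the families PAU, VTH (receptor-like proteins related to the vacuolar sorting receptor) and IMA (isomaltases), and these ends were read-free over 94.04% and 92.4%. Chromosomes 15 right and 16 left shared YRF1, PAU, ERR (enolase-related proteins), HSP (HSP33 and HSP32, chaperone-like proteins) and FEX (fluoride exporters), and they were read-free over 60.1% and 61.1%. Chromosomes 4 left and 10 right shared 6 families, COS, MPH (alpha-glucoside transporters), SOR (sorbitol dehydrogenases), HXT, THI (thiamine synthesis) and AAD (putative aryl-alcohol dehydrogenases), and they were read-free over 51.1% and 57.8%. The shares differed by 1.62, 1.06 and 6.66 percentage points within these pairs, which were chosen here because they include the emptiest ends.

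Sharing families and being read-free did not always go together. At least 3 families were shared by 7 pairs of ends, made up of 10 ends, which held 6 of the 9 ends with a ratio below 0.1. The pair with the lowest values was chromosome 2 right and 7 right (COS, MAL and PAU), read-free over 15.8% and 2.56%. The shares differed by 13.2 points in this pair, by 22.4 between 6 left and 14 left, by 16.1 between 10 right and 14 left, and by 9.42 between 4 left and 14 left. The other 22 ends ranged from 0% to 64.1% with a median of 4.90%. Of these, chromosome 8 right (64.1%), chromosome 12 left (55.9%) and chromosome 1 right (52.8%) were over 50%. This grouping was made after the read-free shares had been seen, and how alike the sequences of paired ends are was not measured.

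Ends with and without a gene named YRF1 overlapped. Such a gene was among the outermost 3 genes of 7 ends, whose read-free shares ran from 0.05% to 61.1% with a median of 27.3%. The other 25 ends ran from 0% to 94.04% with a median of 13.97%. Genes of Y′ elements that carry only a systematic name in R64 were not counted, so this does not compare ends with and without a Y′ element. Chromosome 4 right, the end of highest density, had YRF1-1 as its outermost helicase gene, and chromosome 16 left, with a median of 0, had YRF1-7. Chromosome 16 left was counted from base 1, with its first covered base at 6707, while right ends began at the last covered base. A read-free tip was therefore counted on left ends alone, and its part in the values by YRF1 was not tested.

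The longest runs of neighbouring low windows covered most of an end. A run of 38 windows spanned 0.5 to 19.5 kb from the left end of chromosome 9, with 121 midpoints in replicate 1 and 142 in replicate 2 in all. A run of 36 windows at chromosome 10 left, 0.5 to 18.5 kb, held 102 and 146 midpoints. Both totals were below what a single interior window usually held. The runs of 32 windows at chromosome 1 right (1839 and 1315 midpoints) and of 31 at chromosome 10 right (1252 and 1228) were low but not empty. Runs of 21 windows followed at chromosome 4 left (786 and 516) and chromosome 8 right (659 and 460).

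Whether full windows were more or less frequent in the outer 20 kb depended on the threshold, and the fullest differed between the libraries. Over 2 times the interior median in both libraries lay 47 outer windows (3.67%), against 4.8% of all windows. Over 3 times lay 23 (1.80%), against 0.585% of all windows, and with windows of 1 kb 22 of 640 (3.44%) were over 2 times, against 2.27%. Of the 64 windows in the outermost 1 kb 19 (29.7%) were over 2 times. The fullest outer window was the outermost one of chromosome 11 right, chr11:666064-666563, with 13306 midpoints in replicate 1 and 34408 in replicate 2, which is 15.9 and 47.7 times the interior median. The outermost window of chromosome 3 left, chr3:1-500, held 15474 and 35264 midpoints (16.7 and 44.98 times), and that of chromosome 14 right, chr14:783946-784445, held 11817 and 29423 (13.2 and 39.1 times). At these 3 ends the outermost genes included GEX1 and VBA3 (chromosome 3 left), GEX2 and VBA5 (11 right) and PAU6 (14 right), where GEX genes encode glutathione exchangers and VBA genes vacuolar transporters of basic amino acids.

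The other windows of this height lay inside the subtelomere, next to read-free bases. The window chr12:11001-11500 at the left end held 7660 midpoints in replicate 1 and 20423 in replicate 2 (9.15 and 28.3 times). The window chr12:1064790-1065289, which was 6.5 to 7 kb from the right end of the same chromosome, held 6088 and 14227 (7.27 and 19.7 times). In the outer 20 kb 20 windows (1.56%) had a mean ratio of at least 4, against 0.191% of all windows, and of these 20 12 were outermost windows and 8 lay farther in. The next window toward the end held a read-free base at 8 of these 8, against 37.5% of the 1248 outer windows that have such a neighbour. These outward windows held from 14 to 500 read-free bases. The next window inward held one at 1 of the 8, chromosome 12 left. For that side the share over all outer windows was not computed, so the sides cannot be compared. They lay at chromosomes 5 right, 6 left, 8 left, 8 right, 12 left (which had 2 of them), 12 right and 14 left, between 1.5 and 11.5 kb from the end.

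These full windows held relatively more reads in replicate 2. The ratio was higher in replicate 2 in 20 of the 20 outer windows with a mean ratio of at least 4, by a median factor of 2.48 and a range from 1.07 to 3.93. In the interior 27 of 21524 windows reached the same height, and 11 of them were higher in replicate 2, with a median factor of 0.945 and a range from 0.620 to 1.27. The interior windows above the same threshold thus showed no median shift of this kind, though the ranges overlapped. A window could pass this threshold through its value in replicate 2 alone, such as 1 at chromosome 12 left with 1.65 and 6.47. By a ratio of at least 4 in replicate 1, 18 outer windows had a median factor of 2.33 (1.07 to 3.09). The 37 interior windows picked in this way had a median factor of 0.874 (0.621 to 1.22). How far windows lay above the threshold was not matched between the regions. The cause of the difference between the libraries in the outer windows was not tested.

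The outermost window itself varied from empty to the fullest window of its end. Its median ratio over the 32 ends was 1.12 in replicate 1 and 3.21 in replicate 2. It was over 2 in both libraries at 15 ends, 5 left and 10 right, and below 0.5 in both at 9 ends. At chromosomes 6 left, 14 left and 16 left it held no midpoint in either library. At 14 ends it was the highest window of its end in both libraries. Over the 28 ends with at least 20 midpoints in it in both libraries, the ratio of replicate 2 to replicate 1 ran from 0.420 to 7.05 with a median of 1.99, and it was above 1 at 25 ends. Together the 32 outermost windows held 10.7% of the outer midpoints of replicate 1 and 21.1% of those of replicate 2. Without them the outer share of nuclear reads was 3.38% and 3.56%, so most of the difference between the libraries in that share lay in the outermost 500 bp.

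**Figure D4:**
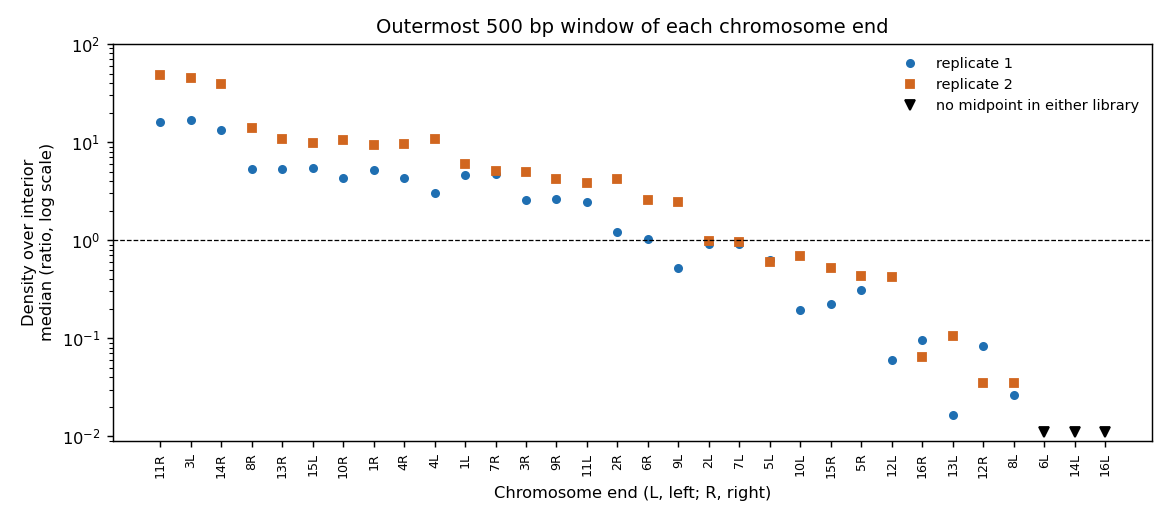
Density ratio of the outermost 500 bp window of each end in replicate 1 and replicate 2, on a log scale. At chromosomes 11 right, 3 left and 14 right the ratio was 13.2 to 16.7 in replicate 1 and 39.1 to 47.7 in replicate 2.

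The end of a chromosome was set by the last covered base. This base lay 99 to 149 bp past the last 5′ end of a read, with a median of 118 bp over the right ends, because each read had been lengthened to 150 bp. The outermost windows of the right ends can therefore hold up to this many bases in which no read starts. The windows of the left ends began at the first base of each chromosome.

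The first maximum in the autocorrelation of midpoints lay at a longer lag in the outer 20 kb, and other measures of spacing were divided in direction. The median distance between called nucleosomes was also longer there. The most frequent distance and a line through several maxima did not share this direction in both libraries. The repeat length was taken as the lag of the highest local maximum between 120 and 260 bp, over stretches of at least 2 kb that were covered in both libraries, 395108 bases in the outer 20 kb and 10360038 in the interior. It was 180 bp in both libraries in the outer 20 kb and 171 bp in both in the interior. The interior of single chromosomes ranged from 169 to 173 bp in replicate 1 and from 168 to 172 bp in replicate 2, so that the outer value lay outside the range of the 16 interiors. The lag was 190 and 189 bp in the outer 10 kb, 174 bp in both libraries from 10 to 20 kb, and 173 bp in both from 20 to 40 kb. Without the outermost 1 kb it was 178 and 177 bp.

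The maxima beyond the first were 340 and 345 bp in the outer 20 kb and 335 bp in both libraries in the interior, and the next were 500 bp against 485 bp. The maximum after these lay at 610 and 615 bp in the outer 20 kb, closer than the 635 bp of the interior. A line through the first 4 maxima gave 145 and 146 bp per maximum in the outer 20 kb and 154.5 bp in the interior, the opposite direction to the first lag. Left ends gave 180 bp in both libraries, and right ends gave 180 and 179 bp. The autocorrelation at the first maximum was -0.0288 and -0.0510 in the outer 20 kb and 0.0244 and -0.00126 in the interior, so the maximum was a local one of small height, and maxima at longer lags were higher. This measure was chosen after the data had been seen.

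**Figure D5:**
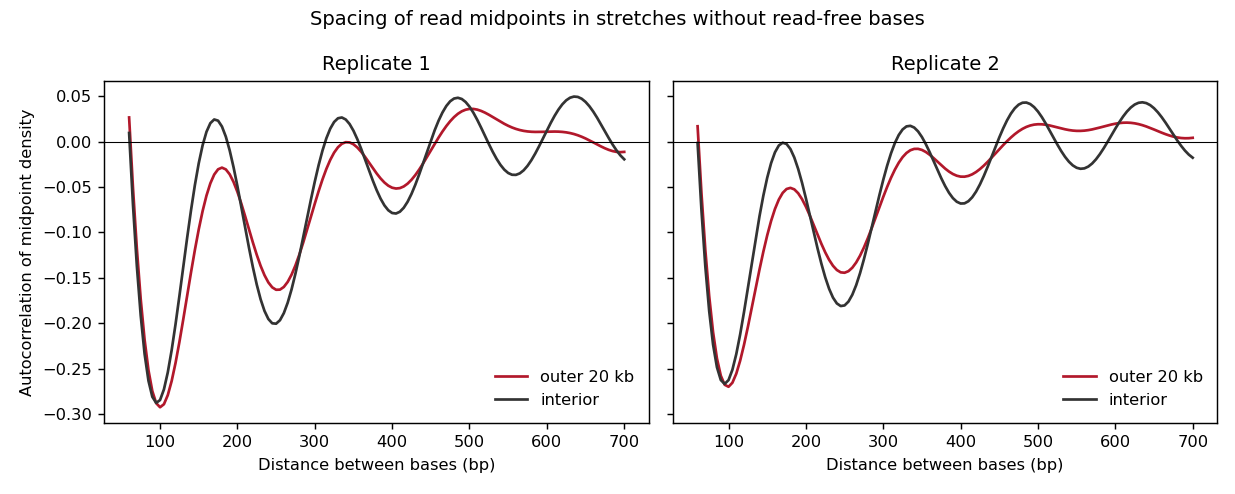
Autocorrelation of midpoints against lag in bp in the outer 20 kb and the interior, for each library. The first maximum lay at 180 bp in the outer 20 kb and at 171 bp in the interior in both libraries.

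Distances between called nucleosomes gave a less clear difference. In the outer 20 kb 1965 positions were called in replicate 1 and 1940 in replicate 2. Their most frequent distance was 155 and 164 bp (mean 159.5 ± 6.36 bp, SD, n = 2), against 157 and 159 bp in the interior, a difference within the spread between the libraries. The median distance was 226 and 232 bp against 208 and 213 bp. Between neighbours with no read-free base between them the medians were 215 and 217 bp against 207 and 211 bp, so a part of the longer distances spanned read-free stretches. Distances over 250 bp made up 41.8% and 43.0% of the outer distances and 35.9% and 36.8% of the interior ones. Between neighbours with no read-free base these shares were 36.3% and 37.5% against 35.4% and 36.1%.

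Sharpness is the share of midpoints within 73 bp of a called position that lay within 20 bp of it. Its median over the outer positions was 55.6% in replicate 1 and 59.0% in replicate 2, against 53.4% and 57.5% in the interior, a difference of 2.18 and 1.48 percentage points. The positions of the outer 20 kb held fewer reads, with medians of 241 and 212 within 73 bp against 298 and 257. Among positions with 300 to 700 reads the medians were 55.0% and 58.1% against 54.2% and 58.5%, so the difference was 0.781 points in replicate 1 and fell on the other side, -0.439, in replicate 2. At matched depth the difference over the whole 20 kb thus had no common direction in the libraries.

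Without matching, sharpness was highest in the outer 5 kb, at 58.3% and 61.3% in the outer 5 kb, and was 53.8% and 57.1% from 15 to 20 kb. Among positions with 300 to 700 reads the outer 5 kb had 58.5% and 60.9%, above the interior in both libraries, and from 15 to 20 kb the medians were 54.0% and 56.1%. In replicate 2 the highest matched value was that of 5 to 10 kb, 61.8%, where replicate 1 had 54.8%. Between ends, the highest values were those of chromosomes 10 left (72.2% as the mean of the libraries, over 4 positions in each), 16 left (67.0%) and 15 right (66.8%), which were among the emptiest ends. The lowest were those of chromosomes 13 right (53.2%), 11 left (54.0%) and 16 right (54.0%), which had most of their windows covered. Of the 32 ends 11 lay above the middle 90% of the interior blocks, which ran from 52.6% to 58.9%. Values of single ends were not matched for depth or number of positions. In replicates 1 and 2 chromosome 16 left had 25 and 24 positions and 15 right had 28 and 26. Chromosome 13 right had 74 in each.

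The distance between the 5′ ends on both strands was used as an estimate of fragment length. The labels give fragments of 147 bp. At 147 bp the strand correlation in replicates 1 and 2 was 0.0482 and 0.0422 in the outer 20 kb and 0.0162 and 0.00588 in the interior. The highest correlation lay at shorter distances, for a reason that was not tested. This strand distance was 94 bp in the outer 20 kb and in the interior in replicate 1. In replicate 2 it was 73 bp in the outer 20 kb and 85 bp in the interior. The correlation between the strands in replicate 2 was 0.155 at 73 bp and 0.136 at 85 bp in the outer 20 kb, while in the interior it was 0.125 and 0.126, nearly level between these distances. With 1 read per position and strand the distance was the same in both regions, 82 bp in replicate 1 and 73 bp in replicate 2. In replicate 1 the correlation in the outer 20 kb was nearly level, 0.120 at 73 bp and 0.124 at 94 bp, where the interior had 0.0857 and 0.108. A difference in strand distance between the whole outer 20 kb and the interior was therefore seen in replicate 2 alone and depended on the way of counting. In the outer 10 kb the difference from the interior was -16 bp as the mean of both libraries, so it also depended on the outer length.

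The libraries placed most of the signal alike. Over the 1280 outer windows r was 0.920 and rho 0.980, and over the interior windows they were 0.987 and 0.943. Windows without a midpoint in either library made up 20.1% of the outer and 2.27% of the interior windows, and they share a rank. Their part in rho was not tested. Over the 1012 outer windows with reads in both libraries r of the log2 values was 0.968, against 0.952 over 21023 interior windows. With both tails left out, the ratio of replicate 2 to replicate 1 ran from 0.645 to 1.50 in these outer windows. In the interior ones it ran from 0.704 to 1.30, a narrower spread. Called positions were matched between the libraries within 20 bp for 81.5% of those of replicate 1 and 82.6% of those of replicate 2 in the outer 20 kb, against 80.1% and 80.8% in the interior.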

How the data were processed

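Nucleosomal DNA of 2 libraries was sequenced by the authors from 1 end with 36 cycles. The authors deposited 1 line per aligned read with chromosome, start, end and strand. The unit is the position of a read, with no other value, and each line spans 150 bp, so reads had been lengthened. The submitters' processing notes name the build sacCer2, and the aligner and the treatment of duplicates and of reads with several places are not given in the sources used here. Lines of the mitochondrial genome were not used.

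For each library 5′ ends were moved inward to the strand midpoint, which is set by the strand distance of that library (highest correlation of at least 60 bp apart, at most 20 reads per position and strand). All reads were kept. Windows had 500 bp, and density was divided by the interior median of the chromosome. Positions were maxima of midpoints after a Gaussian with an SD of 20 bp, with an exclusion zone of 147 bp, and sharpness used positions with at least 20 reads. For the repeat length, midpoints were capped at 20 reads, smoothed with an SD of 20 bp and set against a local mean with an SD of 200 bp. The strand distance, density of covered windows, most frequent distance, repeat length, read-free share and direction of a sharpness difference were tested on simulated data. The simulated reads were independent and held no repeated sequence, and the other measures were not tested in this way. Python 3.11.15, numpy 2.4.6, scipy 1.17.1, pandas 2.3.3 and matplotlib 3.10.9 were used.

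Named were the 3 ends with the highest and the 3 with the lowest density and sharpness, and the 5 fullest windows, longest read-free intervals and longest low runs, ties included. Genes are named only as neighbours in R64, with no values. The windows, lists and measures were chosen with earlier results of these data known. Alternatives covered the outer length, 1 read per position, the move of 5′ ends, each library alone, filters, window size and calling settings.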

Additional observations from a re-analysis of the deposited data

How the results depend on the processing

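Of 74 alternatives to 8 results, 36 stayed within the spread between the libraries or, for counts, within 1.5 times, and the other 38 are given here or as ranges. For results given as a mean of the libraries, either library alone lies within that spread by construction. Those alternatives are among the 36 and say nothing about robustness. The density ratio stayed under 1 in each of its 11 alternatives. It was 0.426 in the outer 10 kb, 0.724 in the outer 30 kb, 0.586 without the outermost 1 kb, 0.629 with 1 read per position and strand, 0.590 with a move of 73 bp, 0.753 as a mean over windows, 0.741 over windows with a midpoint in both libraries, 0.609 against the pooled interior, 0.834 over windows covered at every base relative to covered interior windows, and 0.592 to 0.596 with each library alone.

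The read-free share was 34.1%, 18.4% and 25.2% for the outer 10 kb, the outer 30 kb and without the outermost 1 kb, 20.1% when counted in windows without a midpoint, and 26.0% to 26.3% with each library alone. The most frequent distance between positions was 169 bp with 1 read per position, 170.5 bp with a move of 73 bp, 172 bp with an SD of 40 bp, 166.5 bp with an exclusion zone of 120 bp, 167.5 bp with at least 100 reads, and 155 to 164 bp with each library alone.

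The sharpness difference was 3.76 points in the outer 10 kb, 1.06 in the outer 30 kb, 2.83 with a move of 73 bp, 0.821 within 30 bp, 1.09 with at least 100 reads, 0.171 with 300 to 700 reads, and 1.48 to 2.18 with each library alone. The strand distance minus that of the interior, -6 bp as the mean, was -16 bp in the outer 10 kb and -12 to 0 bp with each library alone.

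Low windows numbered 330 in the outer 10 kb (51.6%, against 13.2% of all windows) and 248 with windows of 1 kb (38.8% against 8.74%). High windows numbered 28 without the outermost 1 kb (2.30% against 4.8%). They numbered 22 with windows of 1 kb (3.44% against 2.27%) and 23 at 3 times the median (1.80% against 0.585%), both opposite in direction to the 3.67% against 4.8% at 2 times. With 1 read per position and strand 0 were high, where 9 of all 24084 windows passed. The repeat length difference, 9 bp, was 18.5 bp in the outer 10 kb, 7 bp in the outer 30 kb, 6.5 bp without the outermost 1 kb, 6.5 bp with a local mean of SD 400 bp and 15 bp when identical reads were counted once.

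The covered windows, the positions of 300 to 700 reads and the repeat length were added after seeing the data. The causes of these shifts were not tested. Outer and interior values were taken within the same library throughout.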
